A study of Mus musculus with 6 samples.

Results

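The 10 genes described here encode the Wnt and R-spondin signal that sets the zones of the liver lobule. They were taken by name, as rows of a table of 24346 genes, and fall into 4 roles: the ligands *Wnt2*, *Wnt9b* and *Rspo3*, the R-spondin receptors *Lgr4* and *Lgr5*, the membrane ubiquitin ligases *Znrf3* and *Rnf43*, and the target genes *Axin2*, *Tbx3* and *Sp5*. RNA from whole livers of 6 male C57/BL6 mice, each 8 weeks old, was sequenced 24 hours after an intraperitoneal dose of 0.6 μl/g carbon tetrachloride (CCl4) given in sunflower oil. In the 3 controls, titled wt and named med23f/f here after the paper, the *Med23* alleles are floxed and intact. The other 3 mice, titled med23 ko, are labelled med23Δli here after the paper. By that name they carry the same alleles with a Cre under the *Albumin* promoter, which acts in hepatocytes and not in the endothelial cells that make the ligands. All 6 mice received CCl4, so the values compare the genotypes after the same dose and hold no untreated state. At this time point the paper reports substantial necrosis in control livers and hardly any in the other genotype. It also reports fewer apoptotic cells and lower serum transaminases in that genotype. The degree of injury thus differed along with the genotype, and its part in the values below was not tested. *Med23* itself read 3.42, 2.97 and 4.14 FPKM in the controls and 3.40, 3.40 and 2.91 FPKM in the livers labelled med23Δli, so its whole-gene level (log2 -0.11, limma adjusted p = 0.685) did not tell the groups apart and does not show the deletion. Which exons those fragments came from is not given in the sources used here. Below, a liver labelled med23Δli is one titled med23 ko, and replicates carry the numbers of their titles. FPKM is the fragment count of a gene scaled to transcript length and to the mapped total of its library, a scale on which genes of different length can be compared.

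As background, endothelial cells of the central vein and the nearby sinusoids secrete *Wnt2*, *Wnt9b* and *Rspo3*. Wnt proteins bind Frizzled receptors and stop the destruction of β-catenin, which then activates genes together with TCF factors. ZNRF3 and RNF43 remove Frizzled from the membrane, and an R-spondin bound to LGR4 or LGR5 draws these ligases away, so that hepatocytes near the central vein receive a stronger signal. Those pericentral hepatocytes express glutamine synthetase and the cytochromes that activate CCl4, whereas periportal hepatocytes express genes of the urea cycle and of amino acid breakdown.

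A fold change here is the difference of mean log2(FPKM + 0.1) between the groups, which understates changes of low genes. A gene was tested when its mean over the 6 libraries was at least 0.5 FPKM, and passed at an adjusted p under 0.05 in limma. Of the 10 genes, 7 were tested, and *Wnt9b*, *Lgr5* and *Sp5* lay under the limit. *Lgr4* and *Axin2* rose and *Rnf43* fell in the livers labelled med23Δli, and the other 4 tested genes did not pass. Thus 3 of 7 passed, where 21.1% of all 11956 genes tested passed, 11.6% higher and 9.48% lower. The 3 livers of one group lay entirely above or below the other 3 for *Lgr4*, *Axin2* and *Znrf3* (higher) and *Rnf43* (lower), where 43.7% of all genes tested had such groups, 23.3% higher and 20.4% lower. No member passed with a change over 2-fold, where 4.45% of all genes did so higher and 3.45% lower. The median log2 fold change was 0.12 over the 7 tested members and 0.02 over all genes tested.

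**Figure D1:**
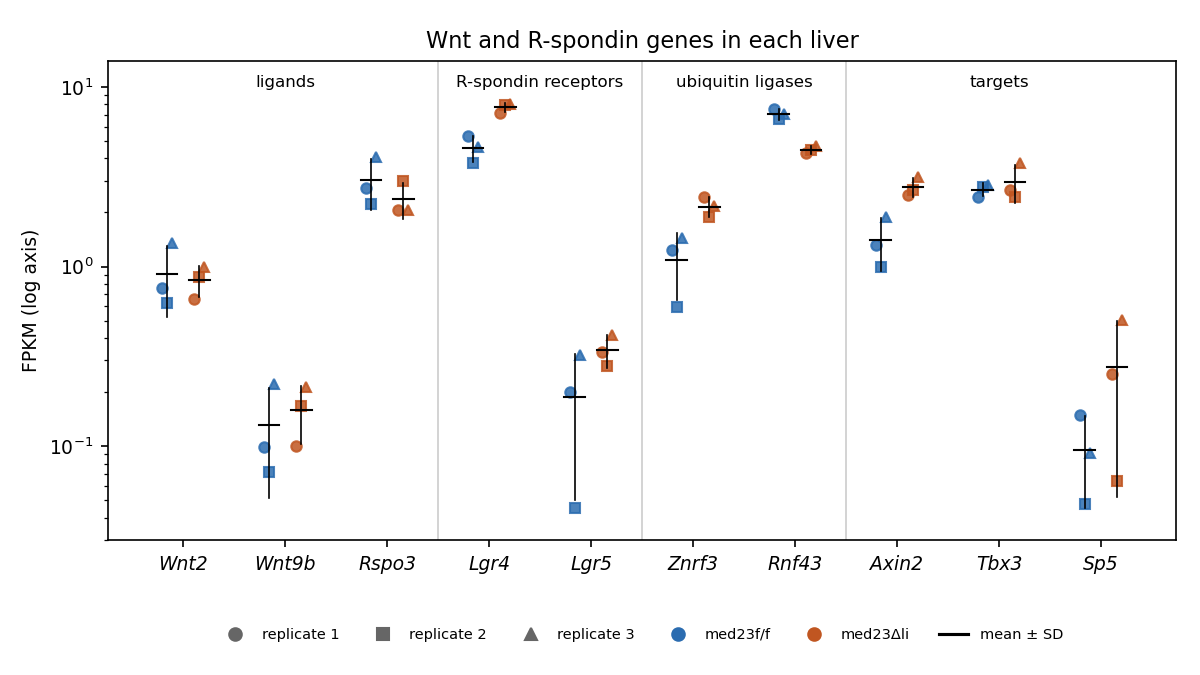
FPKM of the 10 genes in each of the 6 livers on a log axis, with blue points for med23f/f, orange points for med23Δli, symbols for replicate number, horizontal bars for the mean and vertical lines for 1 SD. *Lgr4*, *Znrf3* and *Axin2* lie higher and *Rnf43* lower in every liver labelled med23Δli than in every control, and the ligands overlap.

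The promoters of 3 genes are shown because the first 2 rose between the groups and the other is a target with the sequence letters of TCF binding. Each is the 250 bases before the annotated start, from RefSeq (GRCm38.p6, plus strand, 5′ to 3′), with the core TCF letters CTTTGA, or TCAAAG on the other strand, in capitals. *Axin2* is at chr11:108920099-108920348, *Lgr4* at chr2:109917397-109917646 and *Sp5* at chr2:70474673-70474922.

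Axin2: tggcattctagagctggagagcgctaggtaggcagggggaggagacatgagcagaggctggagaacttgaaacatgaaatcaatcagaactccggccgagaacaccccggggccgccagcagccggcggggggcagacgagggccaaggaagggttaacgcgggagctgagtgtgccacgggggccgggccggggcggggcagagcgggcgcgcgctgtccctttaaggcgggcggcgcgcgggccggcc

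Lgr4: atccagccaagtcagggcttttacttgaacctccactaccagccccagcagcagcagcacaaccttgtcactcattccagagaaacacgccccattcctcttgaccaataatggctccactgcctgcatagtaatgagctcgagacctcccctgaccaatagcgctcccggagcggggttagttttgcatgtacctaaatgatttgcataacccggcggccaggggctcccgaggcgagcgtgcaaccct

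Sp5: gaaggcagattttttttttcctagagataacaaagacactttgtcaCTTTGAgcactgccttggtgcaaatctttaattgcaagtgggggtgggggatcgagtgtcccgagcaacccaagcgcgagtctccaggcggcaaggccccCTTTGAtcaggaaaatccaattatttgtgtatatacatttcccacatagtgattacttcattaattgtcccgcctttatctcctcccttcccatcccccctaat

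The *Sp5* window held CTTTGA at 2 places, 204 and 104 bases before the start, and the *Axin2* and *Lgr4* windows held neither form. Of the 10 genes, 6 had a window in the table, and those of *Wnt2*, *Wnt9b* and *Rnf43* held none either. Of all 32851 promoter windows of the same length, 13.8% held the letters on one strand or the other. These matches describe the letters in this window only.

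None of the ligand genes differed between the groups by more than the spread among livers. *Wnt2* (chr6:17988940-18030585, minus strand of mm10, GENCODE M21) is a Wnt of the liver endothelium. It read 0.757, 0.624 and 1.35 FPKM in the controls and 0.663, 0.878 and 0.991 FPKM in the livers labelled med23Δli, so all livers labelled med23Δli lay inside the control range. Its log2 fold change was -0.05 ± 0.32 (SE), with a 95% interval from -0.78 to 0.69 and an adjusted p of 0.928 in limma. The interval holds a fall to 0.581 and a rise to 1.61 times the control level, so a change within it was not detectable in 3 against 3 livers.

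*Rspo3* (chr10:29452416-29535867, minus strand), the R-spondin of central vein endothelium that stellate cells also make, had the highest level of the ligand genes. It measured 2.74, 2.23 and 4.08 FPKM in the controls and 2.07, 3.00 and 2.07 FPKM in the group labelled med23Δli. The highest value was a control, replicate 3, and the groups overlapped. The log2 fold change was -0.31 ± 0.26 (SE; 95% interval -0.90 to 0.28; limma adjusted p = 0.409). It was -0.08 without control replicate 3, -0.50 without control replicate 2 and -0.48 without med23Δli replicate 2. *Wnt9b* (chr11:103727364-103749821, minus strand), a Wnt of central vein endothelium, was near the bottom of the scale. Its values were 0.0990, 0.0718 and 0.221 FPKM in the controls and 0.0999, 0.166 and 0.213 FPKM in the group labelled med23Δli. These overlapped as well, with a difference of 0.20 on the log2 scale (exact two-sided permutation p = 0.7, where 0.1 is the smallest that 3 against 3 allows). In a fit without the limit on low genes, its interval ran from -0.50 to 0.90, and the difference ranged from 0.02 (without control replicate 2) to 0.47 (without control replicate 3). The ratio of *Rspo3* to *Wnt2* was between 3.02 and 3.62 in the controls and between 2.08 and 3.41 in the livers labelled med23Δli (exact permutation p = 0.3).

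Beside these ligands, most general markers of liver endothelium, a list not limited to the cells near the central vein, were lower in the livers labelled med23Δli. Of 22 pan-endothelial and sinusoidal markers, all were tested and 19 fell, 0 rose (also 0 at an unadjusted p under 0.05 in limma), and 21 had groups that did not overlap, where 9.48% of all genes tested fell and 20.4% did not overlap lower. Their median log2 fold change was -0.88, against 0.02 over all genes tested, and their summed level was 246 to 298 FPKM in the controls and 130 to 144 FPKM in the group labelled med23Δli. None of the markers was at 0 in all livers. The scavenger lectin gene *Clec4g*, the highest of the list, fell from 66.5 ± 16.5 to 27.0 ± 0.763 FPKM (SD, n = 3 each), a log2 change of -1.27. *Stab2*, a hyaluronan receptor of sinusoidal cells, fell by 1.05 on the log2 scale, and *Lyve1*, *Gpr182*, *Clec14a* and *Egfl7* fell by 1.05, 1.06, 1.09 and 1.04. The count dropped to 12 without med23Δli replicate 1, where *Lyve1* (limma adjusted p = 0.0876) and *Clec14a* (0.0526) lost their calls. *Lyve1* also lost it without control replicate 2 (0.0643) or med23Δli replicate 3 (0.0971) and with no limit on low genes (0.0539). In bulk liver, fewer cells of a type and less RNA per cell cannot be told apart.

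Each ligand was then set against the mean log2 level of the 22 markers in its own library, a comparison chosen after the values were seen. That endothelial mean was 2.97, 3.10 and 3.08 in the controls and 2.27, 2.17 and 2.11 in the livers labelled med23Δli. Relative to it, *Wnt2* was 0.82 higher in the group labelled med23Δli on the log2 scale and *Rspo3* 0.56 higher, each with groups that overlapped. *Wnt9b* was 1.07 higher with groups apart, at the low levels given above. The endothelial mean itself changed by -0.87, and *Wnt2*, *Rspo3* and *Wnt9b* by -0.05, -0.31 and 0.20. These offsets, and the separation for *Wnt9b*, thus largely restate the known fall of the markers and are no test of the ligands. Of the central vein markers, 4 of 5 were tested and only *Vwf*, the von Willebrand factor gene, passed, where 9.48% of all genes tested passed lower. *Vwf* fell from 1.18 ± 0.290 to 0.518 ± 0.0190 FPKM, a log2 change of -1.03, or -0.52 with a pseudocount of 1. It did not pass in limma with the block (adjusted p = 0.0694), without control replicate 2 (0.0571) or without med23Δli replicate 1, 2 or 3 (up to 0.0858). *Thbd*, thrombomodulin and the highest of them, gave -0.60 on the log2 scale (limma adjusted p = 0.0811). *Selp* (-0.75, 0.146) and *Kit* (-0.14, 0.786), named after their values were seen, had groups that overlapped. So did *Cdh13*, also named then, which was under the limit for testing and gave -0.09.

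**Figure D2:**
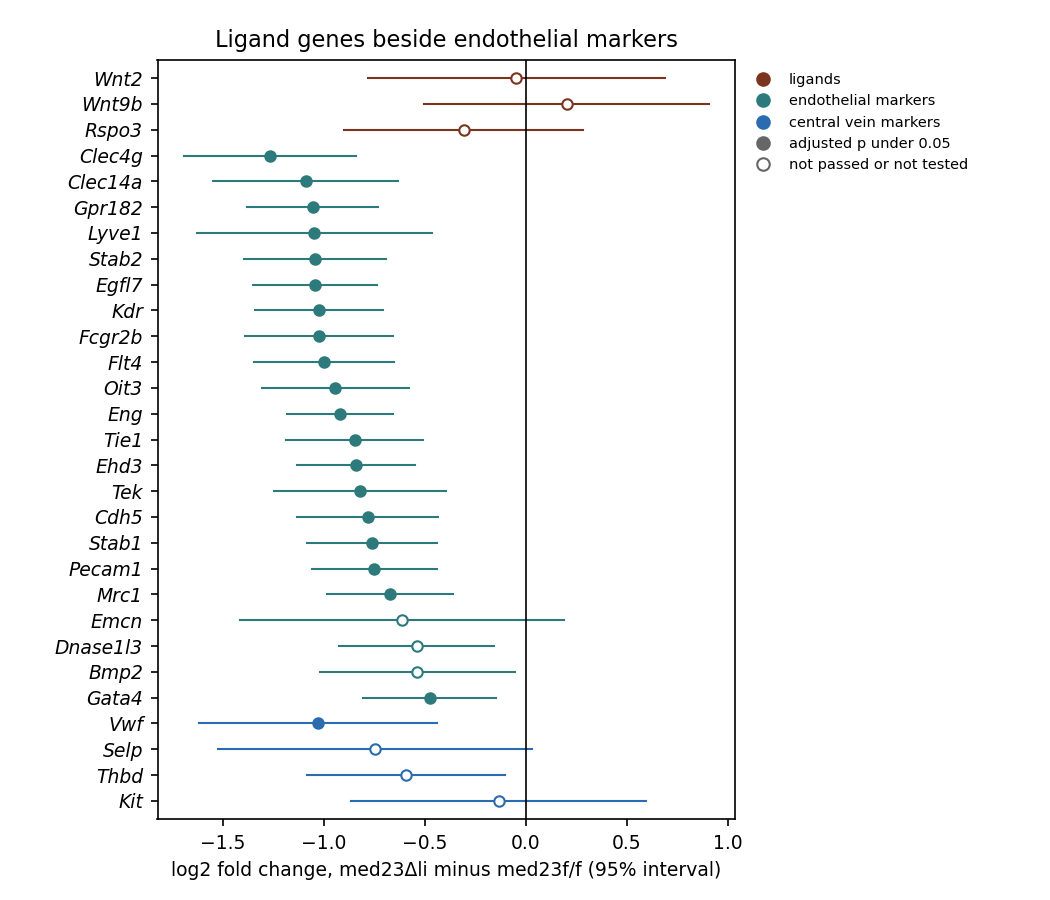
Log2 fold change with its 95% interval for the ligand genes, the 22 endothelial markers and the tested central vein markers, with filled points for an adjusted p under 0.05. The intervals of *Wnt2*, *Wnt9b* and *Rspo3* cross 0, and the 19 filled endothelial points all lie below 0. *Wnt9b* was under the limit for testing, and its interval is from the fit without that limit.

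Among the R-spondin receptors, *Lgr4* (chr2:109917647-110014257, plus strand), the broadly expressed one, rose. It measured 5.31, 3.80 and 4.60 FPKM in the controls and 7.17, 7.89 and 8.01 FPKM in the livers labelled med23Δli. Every liver labelled med23Δli lay above every control, with means of 4.57 ± 0.759 and 7.69 ± 0.454 FPKM (SD, n = 3 each). The log2 fold change was 0.75 ± 0.16 (SE; 95% interval 0.38 to 1.12; limma adjusted p = 0.0172), or 1.68 times. The adjusted p was 0.0620, 0.0727 and 0.0702 without med23Δli replicate 1, 2 or 3, each left out alone. With the replicate numbers as a block, it was 0.0530.

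*Lgr5* (chr10:115450311-115587780, minus strand), a receptor that is also a β-catenin target, was lower, and *Lgr4* was 14.4 to 84.3 times its level over the 6 livers. It gave 0.199, 0.0450 and 0.320 FPKM in the controls and 0.334, 0.278 and 0.418 FPKM in the livers labelled med23Δli, and the highest control lay inside the other group. The difference was 0.74 on the log2 scale (exact permutation p = 0.2), with an interval of -0.21 to 1.69 in the fit without the limit. It was 0.18 with a pseudocount of 1 and 1.16 with a pseudocount of 0.01. The lowest value belonged to control replicate 2, and the difference ranged from 0.31 to 1.08 when each of the 6 libraries was left out in turn.

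The ubiquitin ligase genes differed in sign: *Rnf43* fell, and *Znrf3* was higher without passing. *Rnf43* (chr11:87662722-87735539, plus strand) fell from 7.54, 6.60 and 7.04 FPKM in the controls to 4.27, 4.45 and 4.71 FPKM in the livers labelled med23Δli. All livers labelled med23Δli lay below all controls, with means of 7.06 ± 0.471 and 4.48 ± 0.225 FPKM (SD, n = 3 each). The log2 fold change was -0.64 ± 0.13 (SE; 95% interval -0.94 to -0.34; limma adjusted p = 0.0149), that is, 1.56-fold lower. The adjusted p was 0.0780, 0.0669 and 0.0505 without med23Δli replicate 1, 2 or 3, and 0.0576 with the block.

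*Znrf3* (chr11:5276324-5444847, minus strand) measured 1.24, 0.599 and 1.44 FPKM in the controls and 2.43, 1.88 and 2.16 FPKM in the group labelled med23Δli. Here every liver labelled med23Δli lay above every control, with control replicate 2 the lowest of all. The log2 fold change was 0.99 ± 0.31 (SE; 95% interval 0.28 to 1.71), yet its adjusted p of 0.0547 in limma did not pass. It passed without control replicate 3 (1.22, adjusted p = 0.0286), fell to 0.65 (0.0678) without control replicate 2, and had adjusted p of 0.167, 0.111 and 0.141 without med23Δli replicate 1, 2 or 3. *Rnf43* was 6.10, 11.0 and 4.90 times *Znrf3* in the controls and 1.75, 2.36 and 2.18 times in the livers labelled med23Δli, ranges that do not meet (exact permutation p = 0.1, the smallest possible). *Lgr4* was 0.704, 0.575 and 0.654 times *Rnf43* in the controls and 1.68, 1.77 and 1.70 times in the livers labelled med23Δli (exact permutation p = 0.1), and so it was below *Rnf43* in every control and above it in every liver labelled med23Δli. Both ratios were chosen after the values were seen, from genes whose groups were already apart in opposite directions. Their separation was thus fixed in advance, and their p-values add nothing to the results of the single genes.

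**Figure D3:**
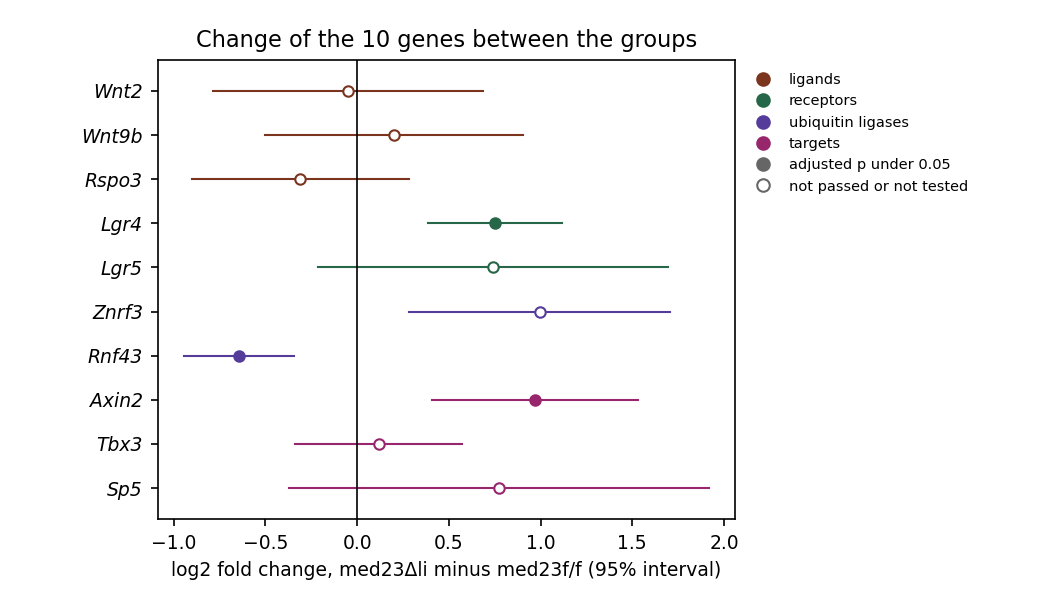
Log2 fold change of the 10 genes with its 95% interval, coloured by role, with filled points for an adjusted p under 0.05. *Lgr4* at 0.75 and *Axin2* at 0.97 are filled above 0, *Rnf43* at -0.64 is filled below 0, and *Wnt9b*, *Lgr5* and *Sp5* come from the fit without a limit on low genes.

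Of the target genes, *Axin2* (chr11:108920349-108950783, plus strand), a scaffold of the β-catenin destruction complex and a widely used readout of Wnt activity, rose. It read 1.31, 1.00 and 1.89 FPKM in the controls and 2.49, 2.67 and 3.13 FPKM in the livers labelled med23Δli. The groups did not overlap, and their means were 1.40 ± 0.452 and 2.77 ± 0.333 FPKM (SD, n = 3 each). The log2 fold change was 0.97 ± 0.24 (SE; 95% interval 0.41 to 1.53; limma adjusted p = 0.0292), or 1.96 times. The call was lost without control replicate 1 (adjusted p = 0.0734) or 2 (0.0565) and without med23Δli replicate 1, 2 or 3 (0.0804, 0.0878 and 0.105), as well as with no limit on low genes (0.0609). An antisense gene, *Gm11670*, overlaps *Axin2*, and whether the counting used strand is not given in the sources used here.

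*Tbx3* (chr5:119670669-119684724, plus strand), a T-box repressor of the pericentral zone, did not pass. Its values were 2.44, 2.79 and 2.83 FPKM in the controls and 2.66, 2.45 and 3.77 FPKM in the livers labelled med23Δli, with 1 liver labelled med23Δli above the rest. The log2 fold change was 0.12 ± 0.20 (SE; 95% interval -0.34 to 0.57; limma adjusted p = 0.695), an interval whose upper end, 1.48 times the control level, lies below the 1.96 times of *Axin2*. The difference between *Axin2* and *Tbx3* was not tested. The antisense gene *Tbx3os1* overlaps *Tbx3*, and *Rspo3*, *Lgr5* and *Rnf43* also overlap other annotated genes, so their values are uncertain to the extent that reads were shared.

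*Sp5* (chr2:70474923-70477729, plus strand), a transcription factor induced by Wnt in many tissues, was the lowest member in the controls. It gave 0.148, 0.0474 and 0.0914 FPKM there and 0.253, 0.0636 and 0.507 FPKM in the group labelled med23Δli. Of the livers labelled med23Δli, 2 were above all controls and replicate 2 was not. The log2 difference was 0.77 (exact permutation p = 0.3; interval -0.37 to 1.92 in the fit without the limit). It ranged from 0.33 without med23Δli replicate 3 to 1.27 without med23Δli replicate 2, and was 0.20 with a pseudocount of 1.

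With ligands and targets side by side, the mean log2 level of the ligand genes was -0.35, -0.60 and 0.32 in the controls and -0.53, -0.10 and -0.15 in the livers labelled med23Δli, a difference of -0.05. The mean of *Axin2*, *Tbx3* and *Sp5* was -0.06, -0.37 and 0.05 in the controls and 0.44, 0.07 and 0.98 in the livers labelled med23Δli, a difference of 0.62. The targets thus stood 0.67 log2 units further above the ligands in the group labelled med23Δli, but the groups overlapped in that quantity because med23Δli replicate 2, at 0.17, lay among the controls. This figure was 0.40 with a pseudocount of 1 and ranged from 0.49 without med23Δli replicate 3 to 0.96 without med23Δli replicate 2. With *Lgr5*, *Znrf3* and *Rnf43*, which β-catenin also induces, counted as targets, the figure was 0.54, again with overlap. These means describe the members and carry no test.

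By level, *Rnf43* was the highest member in the controls, and its libraries did not overlap those of *Lgr4*, the next. *Rspo3*, which overlapped *Lgr4*, and *Tbx3* followed and overlapped each other, *Tbx3* was separate from *Axin2*, and neighbours overlapped from *Axin2* through *Znrf3* to *Wnt2*. *Lgr5*, *Wnt9b* and *Sp5* formed the bottom of the order, separate from *Wnt2* and with each neighbour overlapping. In the livers labelled med23Δli *Lgr4* led, separate from *Rnf43*, which was separate from *Tbx3*. *Tbx3*, *Axin2*, *Rspo3* and *Znrf3* then lay between 1.88 and 3.77 FPKM with neighbours overlapping, and *Znrf3* was separate from *Wnt2*.

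The genes most like *Axin2* in pattern, by the root mean square difference of mean-centred log2 values over the 6 libraries, were *Mex3c* (0.0354), *Eea1* (0.050) and *Sgms1* (0.0731). Those most like *Rspo3* were *Slc16a7* (0.0666), *Tmx4* (0.0885) and *Id4* (0.0905). These are descriptions over 6 points that share the library depth.

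Of the other genes of the pathway, 79 were in the table and 40 were tested: 1 rose, 3 fell and 36 did not pass, with a median log2 fold change of -0.05. The share of all genes tested that passed was 21.1%. *Gsk3b*, a kinase that marks β-catenin for destruction, rose from 3.70 ± 1.06 to 6.08 ± 0.313 FPKM (SD, n = 3 each; log2 0.74, limma adjusted p = 0.0478). The *Gsk3b* call was lost without control replicate 1 (adjusted p = 0.0753) or 2 (0.49, 0.0543), without med23Δli replicate 1, 2 or 3 (0.130, 0.145 and 0.120), with the block (0.0864), with no limit on low genes (0.0887), with no eBayes trend (0.0598) and with length-bin centring (0.41, 0.0791). *Wnt5b*, a ligand of the non-canonical branch, fell from 2.24 ± 1.02 to 0.451 ± 0.150 FPKM (log2 -2.01, adjusted p = 0.0132) and was the only Wnt gene of the 4 tested to pass. The change of *Wnt5b* was -1.11 with a pseudocount of 1. *Bcl9l*, a co-activator that holds β-catenin on TCF, fell by 0.73 (adjusted p = 0.0117), and *Tcf7l1*, a mostly repressive TCF, fell by 1.00 (adjusted p = 0.0461). The *Tcf7l1* call was lost without any one of the 6 libraries (limma adjusted p = 0.0560 to 0.128), with the block (0.0700), with no limit on low genes (0.0894) and with no eBayes trend (0.0541), that of *Bcl9l* without med23Δli replicate 1 (0.0526) or 2 (0.0582), and that of *Wnt5b* without med23Δli replicate 3 (0.0565). Of the 19 Wnt genes, 6 were listed at 0 in all libraries (*Wnt3*, *Wnt8a*, *Wnt8b*, *Wnt10a*, *Wnt10b* and *Wnt16*), as were *Rspo2* and *Rspo4*.

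The most abundant genes of the receptor, secretion, inhibitor, destruction complex and TCF lists did not pass. *Ctnnb1*, which encodes β-catenin, was 136 ± 9.17 FPKM in the controls and 113 ± 5.52 FPKM in the livers labelled med23Δli (SD, n = 3 each; log2 -0.26, limma adjusted p = 0.159). *Lrp5*, the highest of the receptor and co-receptor genes, was 29.8 ± 1.11 and 25.6 ± 1.51 FPKM (adjusted p = 0.211), and 0 of the 10 tested receptor genes passed (1 higher at an unadjusted p under 0.05), where 21.1% of all genes tested did. *Porcn*, which acylates Wnt for secretion, was 2.31 ± 0.450 and 2.16 ± 0.493 FPKM, and the TCF co-repressor gene *Ctbp1* was 43.2 ± 4.13 and 42.4 ± 1.19 FPKM. *Notum*, a secreted Wnt deacylase that β-catenin induces, was 4.31 ± 0.269 and 4.68 ± 2.14 FPKM (log2 0.02, adjusted p = 0.977), and 0 of the 3 tested inhibitor genes passed (0 at an unadjusted p under 0.05), too few to set against the 21.1% of all genes. *Nkd1*, another feedback inhibitor named here after its values were seen, gave -0.55 on the log2 scale (adjusted p = 0.127), opposite in sign to *Axin2*.

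Passing hepatocyte genes were higher in the pericentral list and lower in the periportal one. Of 16 pericentral genes, 15 were tested, and 7 rose and 0 fell (1 lower at an unadjusted p under 0.05 in limma), with a median log2 fold change of 0.60, where 11.6% of all genes tested rose and 9.48% fell. *Nr1i3*, the nuclear receptor CAR, rose from 5.74 ± 1.87 to 31.2 ± 2.49 FPKM (SD, n = 3 each), a log2 change of 2.46. *Rgn*, a calcium-binding lactonase, rose by 2.36, *Cyp1a2* by 1.62 and *Gulo*, of ascorbate synthesis, by 1.23. *Cyp2e1*, the cytochrome that activates CCl4, rose from 254 ± 76.7 to 590 ± 29.2 FPKM (log2 1.26, adjusted p = 0.00896). *Glul*, the glutamine synthetase gene and the pericentral gene most closely tied to Wnt, was named after its values were seen: it was 16.7 ± 3.89 and 18.6 ± 2.50 FPKM (log2 0.18, adjusted p = 0.553). Of the 15 tested, 12 changes were positive and 3 negative. The negative ones, also named after their values were seen, were *Rhbg* (log2 -0.73, limma adjusted p = 0.101), *Slc1a2* (-0.46, 0.659) and *Aldh1a1* (-0.13, 0.842). For *Rhbg*, every liver labelled med23Δli lay below every control.

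Of 16 periportal genes, 15 were tested, and 5 fell and 0 rose (2 higher at an unadjusted p under 0.05 in limma), with a median of -0.43, beside the same 9.48% lower and 11.6% higher over all genes. *Hal*, of histidine breakdown, fell from 83.1 ± 31.5 to 29.2 ± 4.19 FPKM (SD, n = 3 each), a log2 change of -1.45. *Etnppl*, a phospholyase, fell by 2.91 with a wide control spread (154 ± 141 FPKM), *Cdh1*, E-cadherin, by 1.56 and *Sds*, of serine breakdown, by 0.78. The periportal count dropped to 3 without control replicate 1 or med23Δli replicate 2, and to 2 without med23Δli replicate 1 or 3. *Etnppl* lost its call without any one library but control replicate 2, *Cdh1* without any but control replicate 3, and *Sds* without med23Δli replicate 1 or 3 (limma adjusted p up to 0.118, 0.109 and 0.0706). *Etnppl* did not pass with robust eBayes (0.0975) or with no limit on low genes (0.0705), nor *Cdh1* with no such limit (0.0623), and the change of *Etnppl* was -2.12 without control replicate 1 and -3.83 without control replicate 2. Of the 15 tested periportal genes, 9 changes were negative and 6 positive. The 2 that were higher at an unadjusted p were *Aldh1b1* (log2 0.89, limma adjusted p = 0.107) and *Pck1* (0.63, 0.120), named after their values were seen. Both lists describe the uninjured lobule. The paper reports more necrosis in the controls, and its part in the zonal values was not tested.

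**Figure D4:**
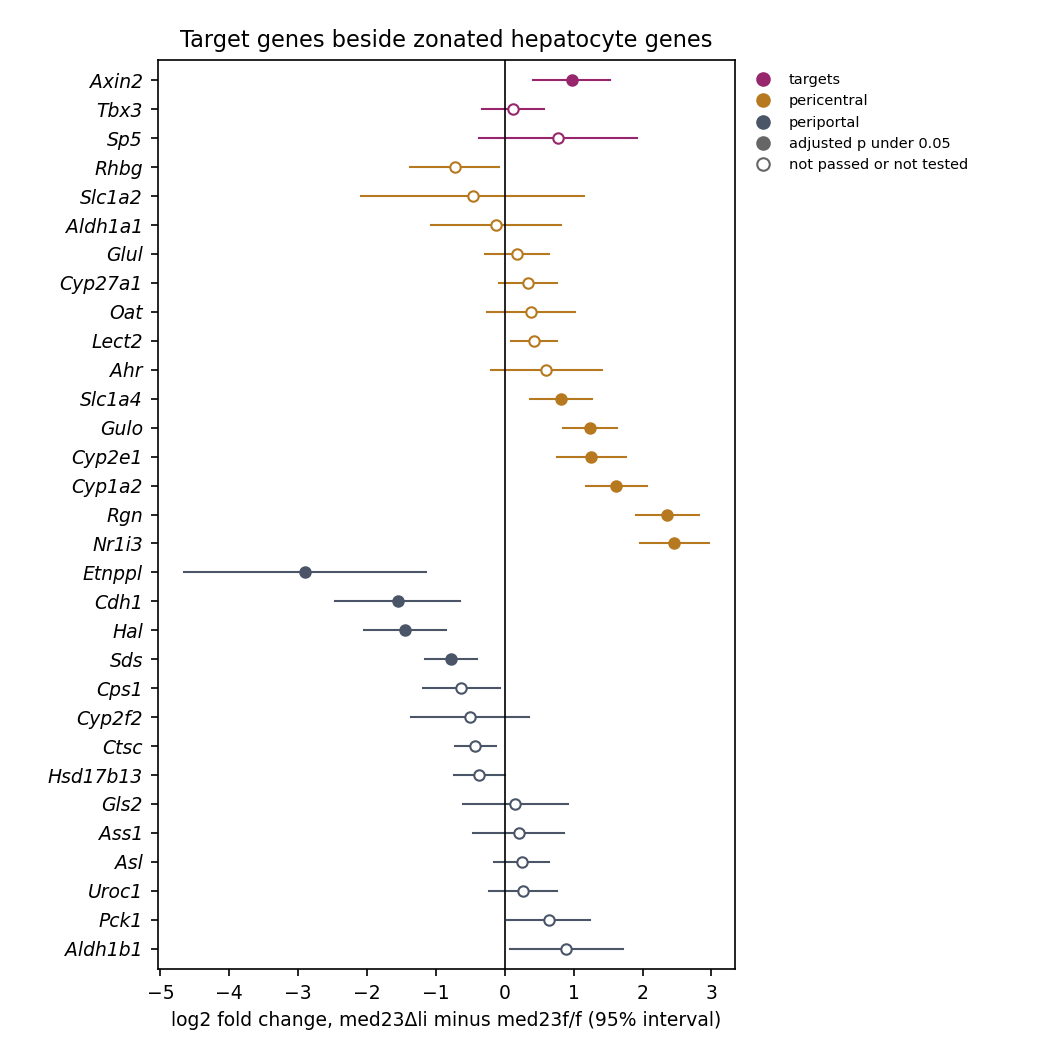
Log2 fold change with its 95% interval for the target genes and for pericentral and periportal genes that were tested, with filled points for an adjusted p under 0.05. The filled pericentral points drawn lie above 0, the filled periportal points drawn lie below 0, and *Tbx3* and *Glul* lie close to 0.

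Other features of the libraries moved with some of these values, and their part in the results was not tested. Among stellate cell markers, 3 of 12 fell (*Ecm1*, the highest, by 0.68, *Colec11* by 0.74 and *Des* by 0.56), and at an unadjusted p under 0.05 in limma 5 were lower and 1 higher (*Reln*, log2 0.47, adjusted p = 0.122, named after its values were seen), beside 9.48% of all genes lower and 11.6% higher by adjusted p, with summed levels of 183 to 230 FPKM in the controls and 123 to 157 FPKM in the group labelled med23Δli. Markers of macrophages (0 of 9), bile duct cells (0 of 5), neutrophils (0 of 5) and hepatocytes (0 of 7) gave no passing gene in limma, where 21.1% of all genes passed in either direction, with 2, 0, 3 and 2 lower and none higher at an unadjusted p under 0.05, and no lymphocyte marker reached the limit for testing. The share of all genes at an unadjusted p under 0.05 was not computed. The unadjusted counts given here and above thus cannot be set against a background. The *Ecm1* and *Des* calls were lost with the block (limma adjusted p = 0.0766 and 0.0908) and without any one med23Δli replicate (up to 0.103 and 0.149). *Ecm1* also lost its call without control replicate 2 or 3, *Des* without control replicate 1 or 2, and *Colec11* without med23Δli replicate 1 (0.0511). *Ecm1* did not pass with length-bin centring (0.0638) or with no limit on low genes (0.0530), and *Des* did not with no such limit (0.0884), with no eBayes trend (0.0532) or with robust eBayes (0.0517). The macrophage sum was 275 to 332 and 308 to 320 FPKM, and *Cd68*, the highest, was 75.4 ± 29.8 and 87.9 ± 9.39 FPKM. Adipose markers were high only in med23Δli replicate 2, where *Cfd* was the highest of them and *Adipoq*, listed at 0 in the controls, reached 5.65 FPKM. Their sum was 0.243 to 0.714 FPKM in the controls and 0.270 to 37.1 FPKM in the group labelled med23Δli.

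Control replicate 2 also read low for long transcripts, with a median log2 deviation from the mean of the 6 libraries of -0.21 at 5 to 8 kb and -0.33 above 8 kb, and 0.14 under 1 kb. The library med23Δli replicate 2 read high for them (0.15 and 0.20), and control replicate 3 read low under 1 kb (-0.20). Above 8 kb, the libraries labelled med23Δli were at 0.10, 0.20 and 0.04 and the controls at -0.04, -0.33 and 0.05, so the trend with length ran partly along the groups. Of the members that rose or were higher, the longest annotated transcript is 6311 bases for *Znrf3*, 5060 for *Lgr4* and 4260 for *Axin2*, and it is 4310 for *Rnf43*. After the values were centred within bins of transcript length, an alternative added after the data were seen, *Lgr4* (0.57, adjusted p = 0.0229), *Axin2* (0.91, 0.0264) and *Rnf43* (-0.70, 0.00952) still passed in limma, and *Znrf3* did not (0.81, 0.0584). Without control replicate 2, *Lgr4* and *Rnf43* passed in limma, and *Axin2* (0.77, adjusted p = 0.0565) and *Znrf3* (0.65, 0.0678) did not.

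**Figure D5:**
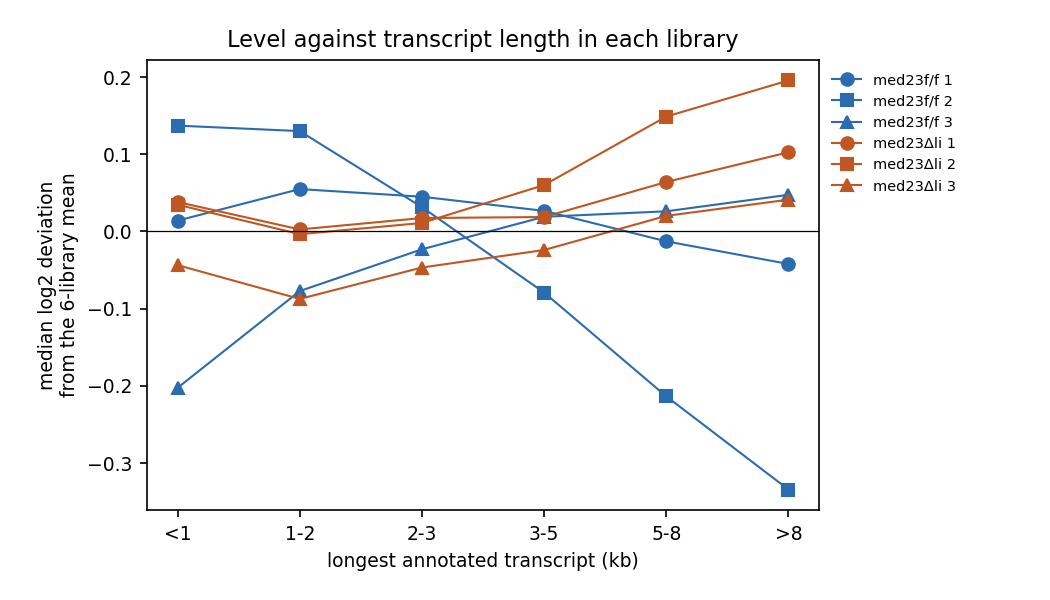
Median log2 deviation from the mean of the 6 libraries in bins of the longest annotated transcript, with 1 line per library, blue for med23f/f and orange for med23Δli. The line of control replicate 2 falls from 0.14 under 1 kb to -0.33 above 8 kb, and that of med23Δli replicate 2 is the highest above 8 kb at 0.20.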

How the data were processed

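The authors prepared TruSeq libraries from whole liver, sequenced paired ends on an Illumina HiSeq, trimmed adapters, aligned to mm10 with TopHat and ran Cuffdiff (FastQC is also listed in the submitters' processing notes); versions, annotation and options are not given in the sources used here. The values deposited by the authors are FPKM per library. Group values and the authors' own fold changes, test statistics, p-values and q-values are also in the table and were not used. No read counts were given, whole reads could not be recovered, and so the depth of each single library is unknown and no counting interval was made. Summed FPKM was 591848 to 651193, and 7628 to 9341 genes were at 0 per library.

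Each library is 1 mouse, grouped by its title. limma 3.58.1 (lmFit and eBayes with trend, R 4.3.3) was run on log2(FPKM + 0.1) for 11956 genes whose mean reached 0.5 FPKM, with Benjamini-Hochberg adjustment over all of them, and was tested on simulated data. Single genes and ratios used exact two-sided permutation tests of mean log2 values (smallest p 0.1). Promoters came from RefSeq GRCm38.p6 and gene positions and transcript lengths (96.4% of tested genes) from GENCODE M21. All 10 members were named. Of each other list, the passing genes were named, up to 6 by size of change, with the gene of highest mean (2 such genes are counted in their lists but not reported here by name), and for *Rspo3* and *Axin2* the 3 tested genes most like them. The members, lists and tests were chosen with earlier results of these data known. Alternatives were another pseudocount, filter, scaling or eBayes setting, a replicate block, each library left out, and centring by transcript length.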

Additional observations from a re-analysis of the deposited data

How the results depend on the processing

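No call of a member changed direction under the alternatives run, and *Wnt2* and *Tbx3*, which did not pass, changed sign with single libraries left out (-0.26 to 0.25 and -0.06 to 0.24). Replicate numbers did not pair the livers: the correlations of same-numbered deviations were -0.02, -0.05 and -0.12. With the replicate block, *Lgr4* was 0.75 (adjusted p = 0.0530) and *Rnf43* -0.64 (0.0576), so neither passed, *Axin2* still did, and the counts were 809 genes higher and 614 lower, 1 member higher and 0 lower, and 0 other pathway genes higher. *Znrf3* passed with a pseudocount of 1 (0.61, adjusted p = 0.0426), quantile normalization (0.98, 0.0485) and robust eBayes (0.99, 0.0480). Without the limit on low genes, *Axin2* stayed at 0.97 but did not pass, leaving 1 member higher, and 3 periportal genes were lower. Other pathway genes higher numbered 2 with a pseudocount of 1, no limit on low genes, median centring, quantile normalization or robust eBayes, and 0 with length-bin centring. The causes were not tested.

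With each library left out in turn, which leaves 2 livers in its group, log2 fold changes ranged from 0.63 to 0.86 for *Lgr4*, 0.65 to 1.22 for *Znrf3*, -0.69 to -0.60 for *Rnf43* and 0.77 to 1.20 for *Axin2*. Over the same fits, 397 to 1723 genes were higher and 343 to 1420 lower, 0 to 3 members higher and 0 to 1 lower, 0 to 6 other pathway genes higher and 1 to 2 lower, 0 to 1 periportal genes higher and 2 to 5 lower, and 12 to 18 endothelial markers lower. The fewest calls came without a med23Δli library. The FPKM hold no read depth, which limits what can be said of *Wnt9b*, *Lgr5* and *Sp5*.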
